A study of Mus musculus with 11 samples.

Results

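Transcript levels of 8 genes of the mouse 2-cell embryo, Zscan4a, Zscan4b, Zscan4c, Zscan4d, Zscan4e, Zscan4f, Tcstv1 and Tcstv3, were followed in embryos made by injecting a round spermatid or a sperm into an oocyte. The members were the rows of the deposited expression table that carry these symbols, 8 of 49585 rows. All 8 were among the 21938 genes with at least 1 TPM (a level per transcript length, scaled to the same total in every library) in at least 2 libraries, and Zscan4b was among them only through its 2-cell libraries, since 1 zygote library alone reached 1 TPM.

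The study sequenced total RNA of C57BL/6 embryos in 11 libraries of 4 groups. ROSI embryos (round spermatid injection) gave 3 libraries at the 2-cell stage and 2 as zygotes, and ICSI embryos (intracytoplasmic sperm injection) gave 3 libraries at each stage. The ROSI embryos were activated for 1 to 2 h with 5 mM SrCl2 in CZB medium lacking calcium and then grown in KSOM, whereas the ICSI embryos were grown in KSOM with no such step named. The injected cell and the activation step therefore cannot be told apart. The 2-cell groups and the zygote groups are compared to show how far the first transcripts of the embryo differ after ROSI.

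In the mouse, transcription of the embryonic genome starts in the zygote and surges at the 2-cell stage, and the Zscan4 and Tcstv families belong to the genes switched on in that surge. Zscan4 genes encode proteins with a SCAN domain and zinc fingers, and in mouse ES cells they are expressed in short bursts and lengthen telomeres through recombination. Zscan4c, Zscan4d and Zscan4f encode full-length proteins, while Zscan4a, Zscan4b and Zscan4e have shortened reading frames. Zscan4d is known as the main form in 2-cell embryos and Zscan4c as the main form in ES cells. Tcstv1 and Tcstv3 encode small proteins of the 2-cell embryo that have also been tied to telomere length in mouse ES cells. The transcription factor DUX, encoded by Duxf3, binds and activates genes of this program in mouse ES cells.

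The members lie in 2 clusters. In build mm10 with the GENCODE M21 annotation, the Zscan4 members spanned chr7:10794242-11402318, a stretch of 608 kb, with Zscan4a, Zscan4b, Zscan4d and Zscan4e on the minus strand and Zscan4c and Zscan4f on the plus strand. The 2 Tcstv members spanned chr13:119893388-120318178, a stretch of 425 kb, with Tcstv1 on the minus and Tcstv3 on the plus strand. No other annotated gene overlapped any of the 8. Zscan4a is annotated there as an unprocessed pseudogene and the others as protein-coding.

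Promoters of 4 members are printed to show how alike the family's start regions are. Zscan4b, Zscan4c, Zscan4d and Zscan4f matched by symbol to RefSeq promoters of build GRCm38.p6, and Zscan4a, Zscan4e, Tcstv1 and Tcstv3 did not. Each window holds 250 bases before and 50 after the annotated start, on the gene's own strand, at chr7:10905001-10905300 (Zscan4b, minus), chr7:11005495-11005794 (Zscan4c, plus), chr7:11166099-11166398 (Zscan4d, minus) and chr7:11397665-11397964 (Zscan4f, plus). Capitals mark the TATA box letters TATAAA and matches to TGATTNAAT, the first 9 letters of the DUX motif (N is any base), on either strand.
Zscan4b: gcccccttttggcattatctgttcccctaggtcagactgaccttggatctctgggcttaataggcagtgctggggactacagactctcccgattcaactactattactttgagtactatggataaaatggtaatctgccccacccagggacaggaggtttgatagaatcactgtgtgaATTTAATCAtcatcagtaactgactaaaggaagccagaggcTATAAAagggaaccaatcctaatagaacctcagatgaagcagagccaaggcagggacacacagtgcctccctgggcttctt
Zscan4c: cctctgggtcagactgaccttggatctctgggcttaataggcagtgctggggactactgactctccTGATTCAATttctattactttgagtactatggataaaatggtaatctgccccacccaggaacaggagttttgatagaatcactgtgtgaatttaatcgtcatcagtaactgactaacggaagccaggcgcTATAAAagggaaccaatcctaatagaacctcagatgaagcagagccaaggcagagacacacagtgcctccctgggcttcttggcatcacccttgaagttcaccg
Zscan4d: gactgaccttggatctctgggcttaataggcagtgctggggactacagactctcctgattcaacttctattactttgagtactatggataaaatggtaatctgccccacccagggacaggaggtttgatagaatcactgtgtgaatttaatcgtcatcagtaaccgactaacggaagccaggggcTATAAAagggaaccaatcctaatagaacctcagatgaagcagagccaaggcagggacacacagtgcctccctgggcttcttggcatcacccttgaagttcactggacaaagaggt
Zscan4f: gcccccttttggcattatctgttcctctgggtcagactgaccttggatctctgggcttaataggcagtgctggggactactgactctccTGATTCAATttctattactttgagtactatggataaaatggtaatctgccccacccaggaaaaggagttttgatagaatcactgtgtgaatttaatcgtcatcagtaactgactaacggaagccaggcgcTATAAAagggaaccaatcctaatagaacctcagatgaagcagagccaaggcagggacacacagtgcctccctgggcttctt
The 4 windows were 95.3% to 99.3% identical in pairwise alignment, with Zscan4c and Zscan4f the closest pair. TATAAA stood on the gene strand in all 4, with its first base 31 bases before the annotated start in Zscan4b and Zscan4f, 54 in Zscan4c and 65 in Zscan4d. It occurs on either strand in 13.6% of the 32851 promoters of this length, and on the gene strand at positions from -65 to -31 in 1.49%. TGATTNAAT was present in 3 of the 4 windows, at -184 in Zscan4c, at -161 in Zscan4f and, on the opposite strand, at -72 in Zscan4b, and in 0.718% of all promoters. The whole DUX motif, which adds CA at the end, was in 0 of the 4 and in 0.0335% of all promoters, and the homeobox core TAATCC was in 0 of the 4 and in 7.06%. Both strands were searched, and no letters of 1 motif were shared with a match of another in these windows.

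The transcripts of the Zscan4 members are nearly identical, which limits how far single members can be told apart. The Zscan4 members' transcripts were 94.4% to 97.9% identical in pairs, and Tcstv1 and Tcstv3 were 83.7% identical. Of all windows of 100 bases along each gene's exons, the share found in no other annotated transcript was 70.4% for Zscan4d and 60.9% for Zscan4a, but 27.2% for Zscan4c, 23.7% for Zscan4b, 19.4% for Zscan4f and 18.5% for Zscan4e. It was 96.4% for Tcstv1 and 92.2% for Tcstv3. How the authors counted reads that match several copies, and their read length, are not given in the sources used here, so the split of reads among the Zscan4 members is uncertain.

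Depth recovered from the TPM steps ran from 8.48 M reads in ICSI 2-cell replicate 1 to 85.9 M in ROSI zygote replicate 2. All 9 oocyte and embryo markers had at least 1 TPM in every library. Cumulus cell markers summed to 45.3 to 52.7 TPM in ROSI 2-cell and 31.2 to 43.6 TPM in ICSI 2-cell libraries. Their sums were 10.7 to 14.3 TPM in ROSI zygote and 13.4 to 15.4 TPM in ICSI zygote libraries. Of these 10 markers, 2 reached 1 TPM in every ROSI 2-cell library and 3 in every ICSI 2-cell library. Lum was at 0 in all 2-cell libraries. The source of these transcripts was not tested. Replicates are not said to come from separate collections, so p-values measure the spread between these libraries only.

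At the 2-cell stage 7 of the 8 members were far above their zygote level, and Tcstv1 was not. The Zscan4 members together had 134 ± 27.8 TPM in ROSI 2-cell embryos, against 13.9 ± 0.342 TPM in ROSI zygotes (SD, n = 3 and 2), a ratio of 9.69. After ICSI their sum was 226 ± 28.1 TPM in 2-cell embryos, against 18.1 ± 4.46 TPM in zygotes (SD, n = 3 each), a ratio of 12.5. Tcstv3 rose as well in both kinds of embryo, while Tcstv1 was already the most abundant member in zygotes.

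**Figure D1:**
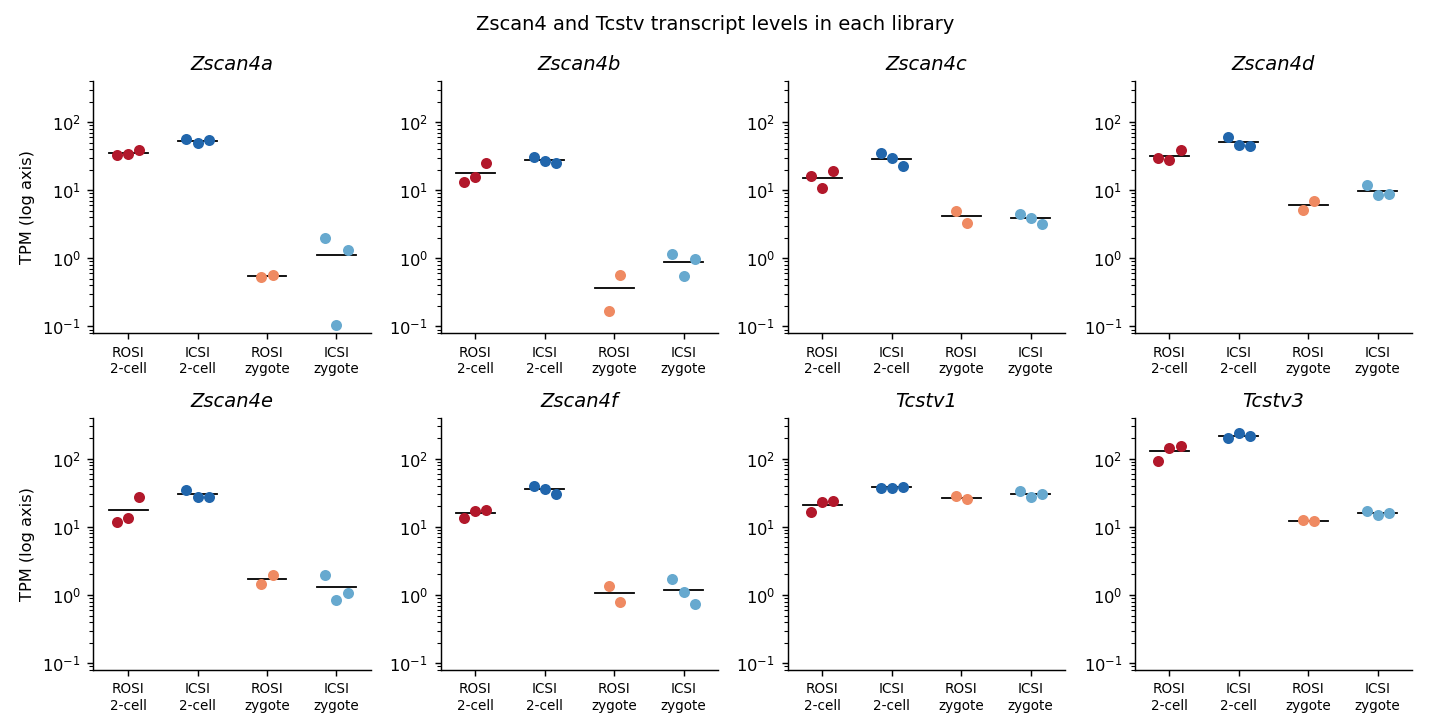
TPM of the 8 members in each of the 11 libraries, on a log axis; each point is a library and each line a group mean, with ROSI left of ICSI at each stage. The 2-cell libraries of 7 members lie above all zygote libraries, and the Tcstv1 libraries of ROSI 2-cell embryos, at 16.4 to 24.2 TPM, lie below both ROSI zygote libraries.

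Zscan4a, which ranked first among the Zscan4 members at the 2-cell stage, had 33.2, 34.4 and 39.1 TPM in ROSI 2-cell libraries, against 0.524 and 0.569 TPM in ROSI zygotes. After ICSI it had 56.4, 48.8 and 54.9 TPM in 2-cell libraries, against 1.99, 0.105 and 1.31 TPM in zygotes. Every 2-cell library was thus high and every zygote library low, with no overlap. The difference on the log2(TPM + 1) scale was 4.56 (SE 0.32, limma adjusted p = 3.59e-07) after ROSI and 4.79 (SE 0.29, adjusted p = 9.14e-08) after ICSI, the highest of the members in both. This scale understates the change of a gene as low as Zscan4a was in zygotes.

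Across the members, 7 of 8 passed the threshold of 0.05 upward after ROSI, where 35.6% of all genes did, and 7 of 8 after ICSI, where 33.0% did. Their median difference over all 8 was 2.87 after ROSI and 3.73 after ICSI, beside a median over all genes tested of 0.19 after ROSI and 0.00 after ICSI. The 2-cell libraries lay entirely above the zygote libraries for 7 of 8 members after ROSI, as for 40.2% of all genes, and for 8 of 8 after ICSI, as for 34.9%, and after ROSI they lay entirely below for 1 member, as for 35.9%. Among those that rose, the smallest differences were those of Zscan4c after ROSI (1.65, SE 0.25, adjusted p = 0.000171) and Zscan4d after ICSI (2.28, SE 0.18, adjusted p = 7.55e-07). Both genes had a higher starting level than the other Zscan4 members. Zscan4d had 5.08 and 6.91 TPM in ROSI zygotes and 11.8, 8.51 and 8.66 TPM in ICSI zygotes. Zscan4c had 5.03 and 3.31 TPM in ROSI zygotes and 4.55, 3.92 and 3.21 TPM in ICSI zygotes, whereas Zscan4b, Zscan4e and Zscan4f were below 2 TPM in every zygote library. Zscan4b in ROSI zygote replicate 1 rested on 3 reads, the fewest of any member in any library.

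Tcstv3 was the most abundant member at the 2-cell stage. It had 91.5, 144 and 153 TPM in ROSI 2-cell libraries, against 12.5 and 12.2 TPM in ROSI zygotes, a difference of 3.25 (SE 0.19, adjusted p = 7.94e-08). After ICSI it had 198, 236 and 218 TPM in 2-cell libraries, against 17.0, 15.2 and 15.8 TPM in zygotes, a difference of 3.68 (SE 0.17, adjusted p = 1.17e-08). All 2-cell libraries stood above all zygote libraries.

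Tcstv1 departed from this course. It had 16.4, 22.9 and 24.2 TPM in ROSI 2-cell libraries, against 28.3 and 25.6 TPM in ROSI zygotes. After ICSI it had 37.6, 37.0 and 39.1 TPM in 2-cell libraries, against 33.6, 27.2 and 30.5 TPM in zygotes. The ROSI 2-cell libraries were all lower than the ROSI zygotes, and the ICSI 2-cell libraries were all higher than the ICSI zygotes. Neither change passed, at -0.35 after ROSI (SE 0.16, adjusted p = 0.0727) and 0.31 after ICSI (SE 0.14, adjusted p = 0.0719). These differences hang on the denominator of TPM: with TPM rescaled to protein-coding genes the value after ROSI was 0.11, and after ICSI it was 0.84 with an adjusted p of 1.91e-05.

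Between the 2 kinds of 2-cell embryo, all 8 members averaged lower after ROSI, and 5 of them passed. The sum of the Zscan4 members in ROSI 2-cell embryos was 0.594 times that in ICSI 2-cell embryos, and the sum of the Tcstv members, at 151 ± 37.3 TPM after ROSI and 255 ± 18.5 TPM after ICSI (SD, n = 3 each), was 0.590 times. Zscan4c, Zscan4d, Zscan4f, Tcstv1 and Tcstv3 fell, against 4.58% of all genes that were lower by the same test. In a bulk library fewer cells with the transcript and less transcript per cell cannot be told apart.

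**Figure D2:**
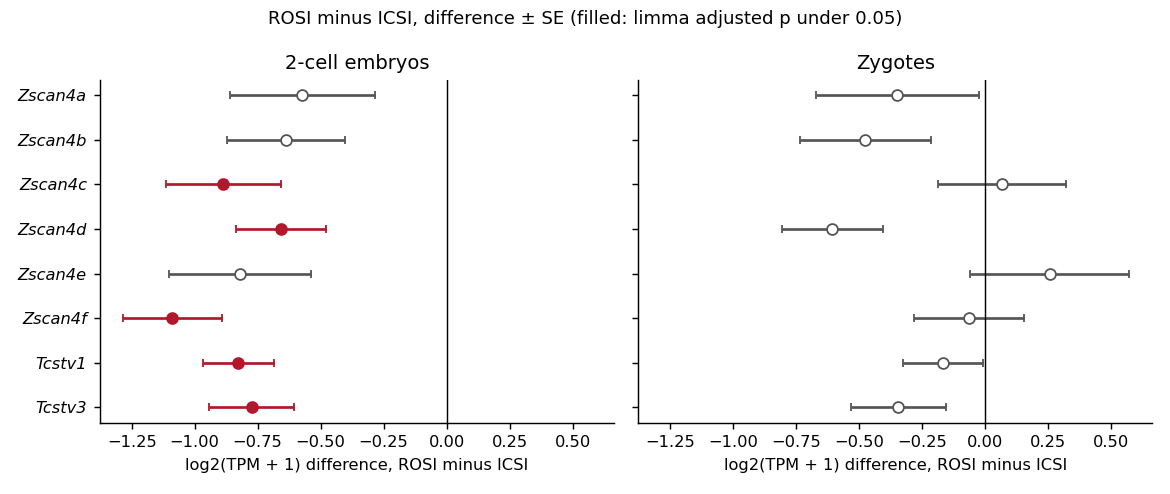
Difference in log2(TPM + 1), ROSI minus ICSI, of each member in 2-cell embryos (left) and zygotes (right); bars are the SE of the limma fit and filled points passed the adjusted threshold. At the 2-cell stage all 8 points lie between -1.09 and -0.57, while in zygotes they spread from -0.61 to 0.26 and none passed.

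Zscan4f showed the widest gap between the groups. It had 13.6, 16.9 and 17.9 TPM in ROSI 2-cell libraries, against 40.4, 35.7 and 30.3 TPM in ICSI 2-cell libraries. The highest ROSI library was well under the lowest ICSI library, and the difference was -1.09 (SE 0.20, limma adjusted p = 0.0109). Of all genes tested, 1.15% had a lower difference.

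Zscan4c had 16.2, 10.8 and 19.0 TPM in ROSI 2-cell libraries, against 34.6, 29.8 and 22.5 TPM in ICSI 2-cell libraries. Zscan4d had 29.3, 27.9 and 38.3 TPM after ROSI, against 60.4, 46.6 and 45.2 TPM after ICSI. In both genes the ROSI libraries were all lower, and the nearest pair was ROSI replicate 3 and ICSI replicate 3. Their differences were -0.89 (SE 0.23, adjusted p = 0.0375) and -0.66 (SE 0.18, adjusted p = 0.0463).

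Zscan4a, Zscan4b and Zscan4e did not pass, although the difference of Zscan4e was larger in size than that of Zscan4d, which passed. Zscan4e had 11.8, 13.7 and 27.0 TPM in ROSI 2-cell libraries, against 35.0, 27.5 and 27.3 TPM in ICSI 2-cell libraries. Zscan4b had 13.0, 15.7 and 25.1 TPM after ROSI, against 31.1, 26.6 and 24.8 TPM after ICSI. In both genes ROSI replicate 3 stood far above the other ROSI libraries. For Zscan4e it stayed just under the lowest ICSI library, and for Zscan4b it exceeded it, the only overlap among the 8 members. The differences were -0.82 for Zscan4e (SE 0.28, adjusted p = 0.0935), -0.64 for Zscan4b (SE 0.23, adjusted p = 0.111) and -0.57 for Zscan4a (SE 0.29, adjusted p = 0.235). Zscan4a did not overlap between the groups, as the values above show.

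Tcstv1 and Tcstv3, whose 2-cell values are given above, were lower in every ROSI library than in any ICSI library. The difference was -0.83 for Tcstv1 (SE 0.14, adjusted p = 0.00928) and -0.77 for Tcstv3 (SE 0.17, adjusted p = 0.0207). In all, 7 of 8 members had ROSI libraries entirely below ICSI libraries, which 11.8% of all genes had. The members' median difference was -0.80, beside 0.04 over all genes tested.

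**Figure D3:**
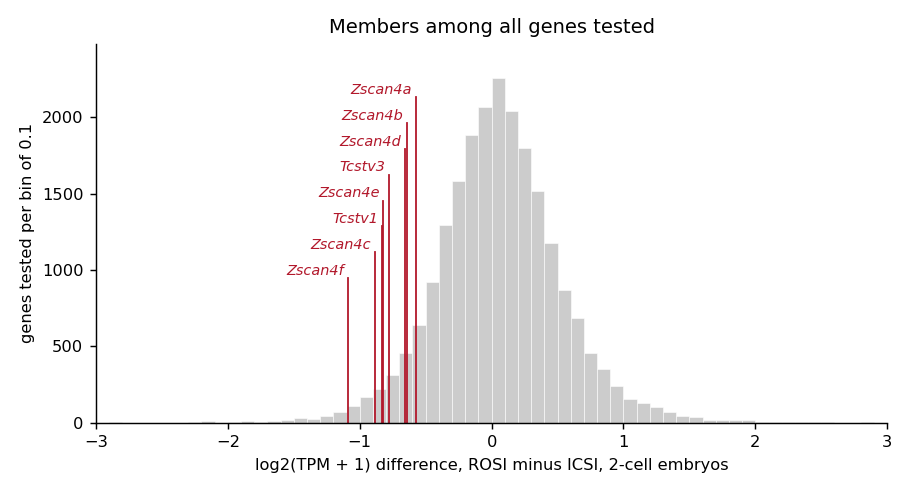
Number of genes in each step of 0.1 in the log2(TPM + 1) difference, ROSI minus ICSI in 2-cell embryos, over the genes tested (grey; 4 genes lie beyond the axis), with the 8 members as red lines whose height has no meaning. The members lie in the lower tail, where Zscan4a, the nearest to 0, had 7.54% of genes below it and Zscan4f 1.15%.

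The count of 5 depended on single libraries and settings. Tcstv1 and Zscan4f passed in all 18 alternatives run on this comparison, Tcstv3 in 16, Zscan4c in 10, Zscan4d in 7, Zscan4e in 3 and Zscan4a and Zscan4b in 2 each, and every alternative kept all 8 differences negative. ROSI replicate 3 was the highest of its group for 8 of 8 members, and without it 7 members passed. ICSI replicate 1, the library of lowest depth at 8.48 M reads, was the highest of its group for 6 of 8 members. Without it Zscan4c (limma adjusted p = 0.113) and Zscan4d (adjusted p = 0.135) no longer passed. Without ICSI replicate 2 only Tcstv1 and Zscan4f passed, and without ROSI replicate 1, ROSI replicate 2 or ICSI replicate 1 the count was 3.

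One transcript, Gm23935, took a large and uneven part of each library and so moves every other TPM. Its share was 23.7%, 17.7% and 12.7% of TPM in ROSI 2-cell replicates 1, 2 and 3, against 17.6%, 16.2% and 16.2% in the ICSI 2-cell replicates. The ROSI library with the highest share was the lowest for 6 of 8 members, and the one with the lowest share was the highest for all 8. The Zscan4 sum of ROSI 2-cell replicates 1, 2 and 3 was 117, 119 and 166 TPM. Rescaled without Gm23935 it was 153, 145 and 191 TPM, so replicate 3 stayed the highest and replicate 2 became the lowest. The highest over the lowest was 1.42 with Gm23935 and 1.31 without it. The part of this share in the order of the replicates was not tested. With TPM rescaled without this row, the Zscan4 sum was 163 ± 24.2 TPM after ROSI and 271 ± 36.6 TPM after ICSI (SD, n = 3 each), and the same 5 members passed. Of all genes tested, ROSI 2-cell embryos had 1082 higher and 1005 lower; median-ratio scaling gave 1048 higher and 2364 lower, and TPM rescaled to protein-coding genes gave 2222 higher and 1336 lower.

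Round spermatid transcripts had higher sums in ROSI than in ICSI embryos at both stages. The 11 spermatid markers summed to 39.9 to 58.6 TPM in ROSI 2-cell libraries, against 10.4 to 15.5 TPM in ICSI 2-cell libraries, where Tnp2 and Smcp were at 0. In zygotes they summed to 90.6 to 180 TPM after ROSI, against 24.3 to 31.0 TPM after ICSI, where Smcp was at 0. Of the 10 tested, 6 were higher in ROSI embryos at each stage. The sums of the 9 oocyte and embryo markers also averaged lower after ROSI. They were 2454 to 3456 TPM in ROSI 2-cell libraries, against 3422 to 3875 TPM in ICSI 2-cell libraries, and these ranges overlapped. In zygotes they were 8742 to 9749 TPM after ROSI, against 10485 to 12535 TPM after ICSI. By stage these markers ran opposite to 7 of the members. Of the 9, 8 were lower in 2-cell embryos than in zygotes after ROSI and 9 after ICSI. Beside them, 7088 and 7687 of the 21938 genes tested were lower. At the 2-cell stage 3 of these 9 were lower and 0 higher after ROSI, with a median of -0.22, and in zygotes 0 of 9 passed, with a median of -0.40. The part of either marker list in the differences of the members was not tested.

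In zygotes none of the 8 members differed between ROSI and ICSI by the same test. Only 32 genes in all passed there, 0.146% of those tested. By unadjusted p under 0.05 there was 1 of the 8 members, beside 1392 of the 21938 genes tested. It was Zscan4d, with every ROSI zygote library below every ICSI zygote library and a difference of -0.61 (SE 0.20, adjusted p = 0.473). Tcstv3 also had both ROSI libraries below the 3 ICSI libraries, at -0.34 (SE 0.19, adjusted p = 0.914), so the groups stood apart downward for 2 of 8 members, as for 19.4% of all genes.

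The other members overlapped between ROSI and ICSI zygotes. Tcstv1 differed by -0.17 (SE 0.16, adjusted p = 1). Zscan4e was the one with the highest difference, at 0.26 (SE 0.31, adjusted p = 1), with 1.44 and 1.96 TPM after ROSI, against 1.97, 0.845 and 1.08 TPM after ICSI. ICSI zygote replicate 1 was the highest of its group for all 8 members. With 2 ROSI libraries and levels of a few TPM, these intervals are wide, and a missing call does not show that the levels were equal.

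The change between the stages had a lower value after ROSI than after ICSI for all 8 members, but no member passed the test of the difference between the 2 changes. Only 4 genes in all passed it, 0.0182% of those tested, and the members' median was -0.55, beside 0.10 over all genes. By unadjusted p under 0.05 there were 4 of the 8 members, beside 3303 of the 21938 genes tested. They were Zscan4e at -1.08 (SE 0.42, adjusted p = 0.271), Zscan4f at -1.03 (SE 0.29, adjusted p = 0.154), Zscan4c at -0.96 (SE 0.34, adjusted p = 0.235) and Tcstv1 at -0.66 (SE 0.21, adjusted p = 0.191). Zscan4d, at -0.05 (SE 0.27, adjusted p = 0.953), was lower after ROSI by about as much in zygotes as in 2-cell embryos. The signs of Zscan4a, Zscan4b and Zscan4d in this test turned under some alternative settings.

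Zscan4d and Zscan4c held most of the Zscan4 signal in zygotes, and Zscan4a and Zscan4d held the largest shares in 2-cell embryos. In zygotes Zscan4d held 43.2% ± 8.25 of the summed Zscan4 TPM after ROSI and 53.9% ± 2.84 after ICSI, and Zscan4c held 30.2% ± 9.51 after ROSI and 21.9% ± 3.62 after ICSI (SD, n = 2 and 3). In 2-cell embryos the largest share was that of Zscan4a, at 26.9% ± 2.93 after ROSI and 23.8% ± 2.61 after ICSI, followed by Zscan4d at 23.8% ± 1.09 after ROSI and 22.4% ± 0.929 after ICSI (SD, n = 3 each). Zscan4a had held 3.94% of the sum in ROSI zygotes and 5.82% in ICSI zygotes. Zscan4f was the member with the largest gap between the 2-cell groups, at 12.2% ± 1.78 after ROSI and 15.7% ± 0.903 after ICSI. These shares are of TPM, which is per length, and were not tested.

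**Figure D4:**
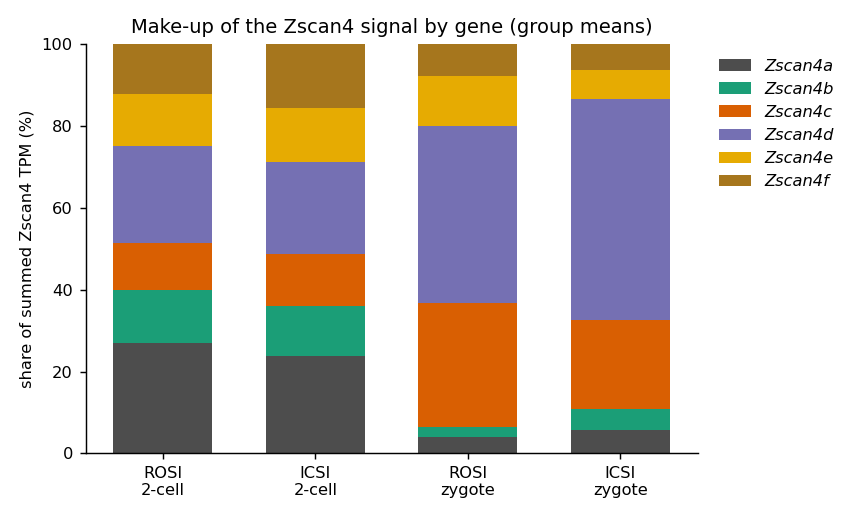
Mean share of each Zscan4 member in the summed Zscan4 TPM of a library, by group, with ROSI left of ICSI at each stage. Zscan4d and Zscan4c make up most of the zygote bars, and the 6 members are more even in the 2-cell bars, where Zscan4a reaches 26.9% after ROSI.

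The order of levels differed between the stages. In 2-cell embryos of both kinds Tcstv3 stood first, Zscan4a and Zscan4d followed with overlapping libraries, and Tcstv1 came next. From Tcstv1 down, each neighbour overlapped the next, so the order among Zscan4b, Zscan4c, Zscan4e and Zscan4f is not resolved. In zygotes of both kinds the order was Tcstv1, Tcstv3, Zscan4d and Zscan4c, each clear of the next, with the other 4 members below. The TPM of Tcstv3 rests on a model of 510 bases, against 779 exon bases in GENCODE M21. A longer model gives a lower TPM, and the order with 779 bases was not tested. Zscan4a and Zscan4d, the highest Zscan4 members at the 2-cell stage, were also the Zscan4 members with the most sequence of their own, and the part of read assignment in that order was not tested.

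The 3 further rows of the Zscan4 cluster split in their course. They are pseudogenes by name and in RefSeq, but GENCODE M21 annotates all 3 as protein-coding. Zscan4-ps1 had 8.10, 8.36 and 9.88 TPM in ROSI 2-cell libraries, against 51.5 and 53.3 TPM in ROSI zygotes. In ICSI embryos it had 20.7, 10.96 and 11.3 TPM in 2-cell libraries, against 55.4, 49.9 and 47.9 TPM in zygotes. It was thus the highest Zscan4 row in every zygote library and fell at the 2-cell stage, with a difference of -2.45 after ROSI (SE 0.22, adjusted p = 2.74e-06) and -1.82 after ICSI (SE 0.20, adjusted p = 1.14e-05). Of its 100-base windows, 76.6% were found in no other transcript. Zscan4-ps2 and Zscan4-ps3 followed the members, with means of 4.35 ± 1.69 and 6.07 ± 1.12 TPM in ROSI 2-cell embryos, against 8.15 ± 1.80 and 12.7 ± 2.98 TPM in ICSI 2-cell embryos, and means under 1 TPM in zygotes. With all 3 rows added, the Zscan4 sum was 67.1 ± 1.26 TPM in ROSI zygotes and 70.2 ± 8.93 TPM in ICSI zygotes, and 153 ± 29.7 TPM in ROSI 2-cell and 261 ± 37.9 TPM in ICSI 2-cell embryos.

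**Figure D5:**
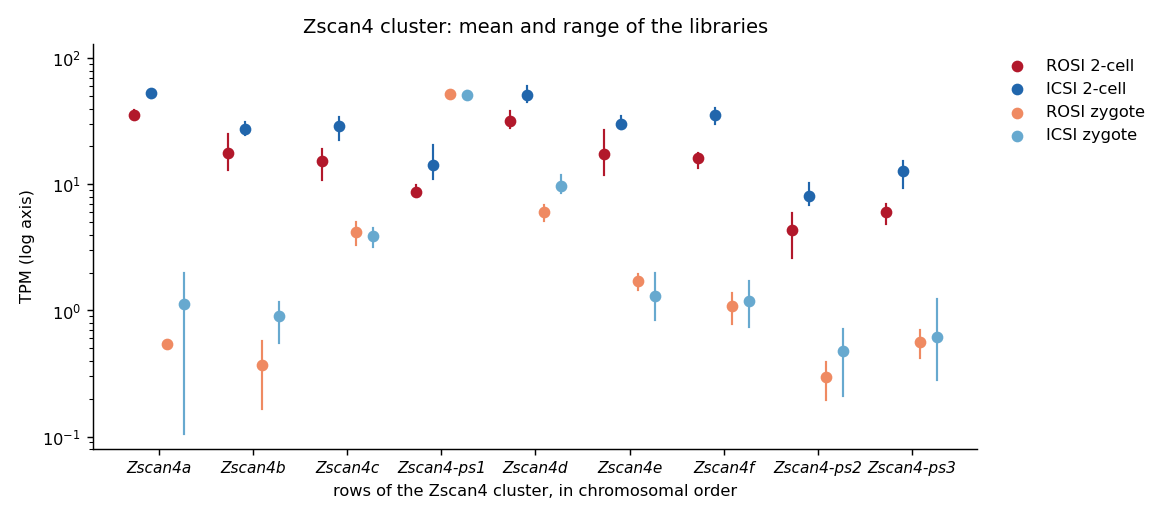
Mean TPM (points) and range of the libraries (lines) of the 9 rows of the Zscan4 cluster, in chromosomal order, on a log axis, with ROSI left of ICSI at each stage. Zscan4-ps1 alone is lower in 2-cell embryos, at 8.78 TPM after ROSI and 14.3 TPM after ICSI, than in zygotes, at 52.4 TPM after ROSI and 51.1 TPM after ICSI.

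Across the list of other rows of both families, 7 of 13 were tested at the 2-cell stage and 4 were lower after ROSI, with a median of -0.81. AF067061 averaged 16.4 ± 4.26 TPM after ROSI and 36.1 ± 2.43 TPM after ICSI, and Gm21818 183 ± 62.3 TPM after ROSI and 378 ± 15.7 TPM after ICSI (SD, n = 3 each). Zscan4-ps3 and BC147527 also fell, by 0.94 and 0.78 on the log2 scale. AF067061 was 91.8% identical to Tcstv1 and Gm21818 93.5% to Tcstv3, so reads may be shared between them. With AF067061, BC147527, Gm20767 and Gm21818 added, the Tcstv sum reached 619 ± 153 TPM in ROSI 2-cell embryos. In ICSI 2-cell embryos it reached 1093 ± 27.98 TPM, a ratio of 0.566. AF067063, a further row of the cluster, was not in these sums.

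Outside these families 6 of the listed 2-cell genes fell. Of the 30 on that list, 0 were higher and 6 lower in ROSI 2-cell embryos by limma, with a median of -0.56. Among them Gm5039 averaged 42.6 ± 9.15 TPM after ROSI and 105 ± 2.63 TPM after ICSI. Klf17, which encodes a zinc-finger transcription factor, averaged 349 ± 51.6 TPM after ROSI and 390 ± 48.8 TPM after ICSI and did not pass. By stage, 25 of the 30 were higher and 3 lower in 2-cell embryos than in zygotes after ROSI, and 27 higher and 3 lower after ICSI. The 3 lower ones were Klf17, Arg2 and D5Ertd577e in both kinds of embryo, so that Klf17 did not follow the stage course of the list. In zygotes 0 of the 30 differed between ROSI and ICSI, with a median of -0.01.

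Regulators of the program known from mouse ES cells did not move as a block. Of 5 activators, Dppa2, which with Dppa4 switches on Dux, was higher in ROSI 2-cell embryos at 337 ± 24.9 TPM, against 262 ± 25.3 TPM after ICSI (0.36, SE 0.10, adjusted p = 0.0480), and the median of the 5 was 0.05. Nelfa ran the other way, at 69.7 ± 16.4 TPM after ROSI and 94.5 ± 6.55 TPM after ICSI. Every ROSI library of Nelfa was below every ICSI library, but it did not pass (-0.46, SE 0.15, limma adjusted p = 0.0839). Duxf3 itself averaged 1.08 ± 0.637 TPM in ROSI 2-cell embryos, against 14.8 ± 0.511 TPM in ROSI zygotes, and 1.08 ± 0.622 TPM in ICSI 2-cell embryos, against 10.9 ± 2.46 TPM in ICSI zygotes. It was thus high in zygotes and low at the 2-cell stage, opposite in course to 7 of the members.

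Of 15 repressors, 3 were higher and 1 lower in ROSI 2-cell embryos, with a median of 0.10. The histone H3K9 methyltransferase gene Ehmt2 (0.66, adjusted p = 0.0446), Smchd1 (0.46, adjusted p = 0.0215) and the histone demethylase gene Kdm1a (0.40, adjusted p = 0.0183) were higher, and Max fell by 0.69 (adjusted p = 0.0132). Of 18 telomere maintenance genes tested, 0 were higher and 2 lower, the shelterin gene Acd, which fell by 0.58 (adjusted p = 0.00928), and the telomerase gene Wrap53, which fell by 0.45 (adjusted p = 0.0355), and their median was 0.01. Of 11 other SCAN zinc-finger genes, Zscan26 alone passed, at 5.81 ± 1.34 TPM after ROSI and 2.04 ± 0.831 TPM after ICSI, and their median was 0.24. The counts for these lists stand beside 4.93% of all genes higher and 4.58% lower. The same shares apply to the 2-cell counts, ROSI against ICSI, of the other family rows, other 2-cell genes, activators and markers.

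Genes that neighbour the clusters were also examined. Their counts stand beside 4.93% of all genes higher and 4.58% lower in ROSI 2-cell embryos. Of 30 tested rows within 500 kb of the Zscan4 members, 0 were higher and 2 lower in ROSI 2-cell embryos, with a median of -0.11. These include the 3 pseudogene rows given above, 1 of which was lower, and the other 27 rows had 0 higher and 1 lower, with a median of -0.02. Nlrp4b, an abundant oocyte transcript there, averaged 11.6 ± 2.25 TPM after ROSI and 12.6 ± 1.23 TPM after ICSI. Of 27 tested rows near the Tcstv members, 1 was higher and 7 lower, with a median of -0.19. These include 5 related rows, AF067061, AF067063, BC147527, Gm20767 and Gm21818, of which 3 were lower, and the other 22 rows had 1 higher and 4 lower, with a median of -0.05. D13Ertd608e was among these 4, at 199 ± 42.4 TPM after ROSI and 367 ± 9.71 TPM after ICSI (-0.91, SE 0.22, adjusted p = 0.0287). Its sequence was not compared with those of the Tcstv members, so whether it is related to them was not tested.

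The members' levels also ran together across the 6 libraries of 2-cell embryos. Pearson's r between pairs of members ran from 0.665 for Zscan4c and Tcstv3 to 0.996 for Zscan4b and Zscan4e. All Zscan4 members share much of their sequence, and the part of this in r was not tested. The genes most like the members' mean log2(TPM + 1) in these libraries were Ccdc74a, Ttll11, Arl3, Klhdc2, Mtss1, Gkap1, Th and Zfp51, with r from 0.994 to 0.997. Of 10090 genes with a mean of at least 5 TPM, 864, or 8.56%, had r above 0.9. The 6 points form a ROSI and an ICSI block and share the TPM denominator, so these values are a description of 6 libraries.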

How the data were processed

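The deposited table held TPM per gene and library, made by the authors with 1 column per library, and 0 further columns were left unused. The submitters' processing notes name fastp, Bowtie2, STAR 2.7.4a, featureCounts and build mm10, without roles or order; annotation and strand setting are not given in the sources used here. Per the labels, SMART-seq stranded libraries were made from 1 ng of total RNA extracted with ISOGEN II.

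Analysis used python 3.11.15, pandas 2.3.3, numpy 2.4.6, matplotlib 3.10.9, R 4.3.3 and limma 3.58.1. Rows reaching 1 TPM in 2 or more libraries entered 1 limma model, on the scale log2(TPM + 1), of 4 group means over 11 libraries (eBayes with a trend), with Benjamini-Hochberg adjustment over all genes tested and a threshold of 0.05. The steps were tested on simulated data. Depth came from the step that turns the product of TPM and exon length into whole reads: of values up to 1000 reads, 86.2% to 89.4% per library were whole to within 0.01, where chance gives 2%. Tcstv3 gave whole reads with a model of 510 bases and the others with GENCODE M21 exon lengths.

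The members and gene lists were chosen with earlier results of these data known. All members were named; from each list, up to 4 genes per direction that passed were eligible, largest difference first, and up to 3 of the highest TPM. The genes most like the members were ranked by correlation over the 2-cell libraries. The lists were other rows of both families, other 2-cell genes, activators, repressors, telomere maintenance, other SCAN genes, and markers of oocyte and embryo, cumulus, round spermatid and other testis cells; the last summed to 197 to 209 TPM in ROSI 2-cell, 153 to 163 TPM in ICSI 2-cell, 41.7 to 51.5 TPM in ROSI zygote and 47.8 to 59.7 TPM in ICSI zygote libraries. Alternatives were pseudocounts of 0.1 and 5, filters, scalings, denominators, the variance prior, array weights, groups fitted alone, a replicate block, each library left out, and pseudogene rows in the sums; the sum with Zscan4-ps2 and Zscan4-ps3 was added after the data were seen.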

Additional observations from a re-analysis of the deposited data

Results flagged for a closer look

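Tcstv1 was the only member whose change between the stages ran in opposite directions in the 2 kinds of embryo. This held for TPM as deposited, but with TPM rescaled to protein-coding genes both changes were upward, as given above. All 3 ROSI 2-cell libraries, at 16.4 to 24.2 TPM, lay below both ROSI zygote libraries, and all 3 ICSI 2-cell libraries, at 37.0 to 39.1 TPM, lay above all 3 ICSI zygote libraries. The test of the difference gave -0.66 on the log2(TPM + 1) scale (SE 0.21), with a limma adjusted p of 0.191 and a range of 0.0377 to 0.437 over its alternatives, which did not pass except under median-ratio scaling and with TPM rescaled to protein-coding genes.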

How the results depend on the processing

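Of the values of single members and sums under alternatives, 709 kept their direction and side of the threshold, 17 newly passed, 21 no longer passed and 16 turned in sign. All 21 that no longer passed were values of single members in the comparison of ROSI with ICSI 2-cell embryos. Of the other member values in that comparison, 116 kept their direction and side and 7 newly passed. Of the counts of members passing, 82 stayed within 1.5 times the main count. The 2-cell count of 5 lower in ROSI than in ICSI embryos was 3 with a pseudocount of 0.1, with no filter, with no trend in the variance and with the 2 groups fitted alone, and from 2 to 7 with 1 library left out. The count for the difference of the stage changes, 0 in the main fit, was 1 under median-ratio scaling and with TPM rescaled to protein-coding genes, Tcstv1 both times. The replicate numbers were not found to pair the libraries, since correlations of deviations were from -0.01 to 0.02 for the 3 ROSI and ICSI 2-cell pairs; the zygotes had only 2 pairs, at 0.33 and 0.22, too few to settle it by this check, and pairs across the stages had -0.03 to 0.06. With the replicate block 4 members passed at the 2-cell stage.

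In zygotes, leaving out 1 library gave Zscan4c from -0.17 to 0.31 and Zscan4f from -0.27 to 0.14, against 0.07 and -0.06 with all libraries: Zscan4c turned to -0.17 without ROSI replicate 1 and -0.04 without ICSI replicate 3, and Zscan4f to 0.14 without ROSI replicate 2 and 0.11 without ICSI replicate 1. With array weights Zscan4f was 0.046. The stage change of Tcstv1 after ROSI turned to 0.11 with TPM rescaled to protein-coding genes. For the difference of the stage changes, a pseudocount of 0.1 gave 0.52 for Zscan4b and 0.0060 for Zscan4d. Leaving out 1 library gave ranges of -0.53 to 0.19 for Zscan4a, -0.42 to 0.050 for Zscan4b and -0.24 to 0.14 for Zscan4d. The cause was not tested. Zygote values below about 1 TPM rest on few reads, 3 at the lowest, and 2 ROSI zygote libraries limit the precision there.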

Other observations

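A further row of the Tcstv region, AF067063, chosen after its values were seen, had 140, 206 and 202 TPM in ROSI 2-cell libraries, against 272, 291 and 278 TPM in ICSI 2-cell libraries. Every ROSI library was below every ICSI library, as for the Tcstv members. It had 78.2% identity to Tcstv3 and 66.6% to Tcstv1 in pairwise alignment of the transcripts.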
